A study of Mus musculus with 4 samples.

Results

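The cytosolic ribosomal protein genes were followed across 4 single-cell libraries of mouse pancreas and pancreatic tumour. Members were taken by name, as symbols that start with Rpl or Rps and a digit, with Rplp0, Rplp1, Rplp2 and Rpsa, and without Rps6k kinase genes and rows named as pseudogenes. This gave 86 of the 32285 genes counted. The list holds 43 proteins of the large subunit, 31 of the small subunit and the 3 proteins of the stalk (Rplp0, Rplp1, Rplp2). It also holds 7 genes grouped here as paralogs (Rpl3l, Rpl10l, Rpl22l1, Rpl36al, Rpl39l, Rps27l, Rps27rt) and 2 other genes that match the name rule (Rpl7l1, Rps19bp1). Rpl10l had no UMI (a unique molecular identifier, which marks 1 captured RNA molecule) in any kept cell, so the other 85 members were measured. The group was chosen by measured values, the ratios of the AF12198-treated over the control tumour, in which many of these genes were higher in every cell type, so the values of that comparison are a description and support nothing by themselves.

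A cytosolic ribosome is built from ribosomal RNA and 1 copy each of most of these proteins, in a small subunit that reads the mRNA and a large subunit that joins amino acids. The stalk of the large subunit recruits the factors that drive elongation. Messenger RNAs of ribosomal proteins usually begin with a run of pyrimidines, through which mTOR signalling and the protein Larp1 govern their translation and stability, and they are abundant in growing cells and in lymphocytes.

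The groups were, in turn, a KPC tumour treated with AF12198, a control KPC tumour, a suture-ligated pancreas and a normal pancreas, with 1 library each. KPC cells are mouse pancreatic cancer cells. They were injected into a pancreas whose duct had been closed by a suture, which brings on pancreatitis, and the mice then received AF12198, a peptide that blocks the interleukin-1 receptor IL1R1, or saline by weekly intraperitoneal injection. Tissue was taken at 4 weeks. The sources used here do not state the strain, sex or age of the mice, or how many animals stand behind a library. Tumours hold injected cancer cells and host cells together. For the ligated and the normal pancreas the labels name neither injection.

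After filtering, 18825, 19235, 1124 and 1771 cells remained in the AF12198-treated tumour, the control tumour, the ligated pancreas and the normal pancreas, with medians of 2291, 2035, 2216 and 1589 UMIs per cell. Kept cells of different libraries shared between 1 and 91 barcodes. Cells were clustered without the ribosomal protein genes, and 25 of 29 clusters were named in 14 classes from marker genes, written with the ending -like. In every class and library with at least 25 cells, at most 1 of the class's markers was without a UMI. With 1 library per group, no difference below has a replicate check and no p-value is given. Intervals are 95% and cover counting error only.

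Ribosomal protein genes took 16.2% of all UMIs in the AF12198-treated tumour, 10.1% in the control tumour, 7.29% in the ligated pancreas and 12.2% in the normal pancreas. The median cell gave 11.4, 6.91, 3.50 and 9.91% in the same order. The AF12198-treated tumour was therefore highest and the ligated pancreas lowest by either measure.

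The share was higher in the AF12198-treated tumour than in the control tumour in 13 of 13 classes with at least 25 cells in both, by a median of 1.77-fold. T-like cells had 24.4% in the AF12198-treated tumour and 13.0% in the control tumour, and B-like cells 24.2% and 12.2%. NK-like cells had 21.1% against 10.9%, and mast/basophil-like cells 22.1% against 10.2%, with only 33 cells in the control tumour. The lymphoid and mast classes had some of the highest folds, 1.88 in T-like, 1.98 in B-like, 1.93 in NK-like and 2.17 (2.12 to 2.21) in mast/basophil-like cells. Among stromal cells, endothelial-like cells had 15.0% in the AF12198-treated tumour and 7.57% in the control tumour, and fibroblast-like cells 16.2% and 9.19%. The endothelial-like fold, 1.99, was above those of T-like, B-like and NK-like cells. Macrophage/monocyte-like cells had 14.9% against 8.88%, dendritic-like cells 19.9% against 12.0%, and plasma-like cells 11.3% against 6.17%.

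The smallest folds were in acinar-like cells (12.9% in the AF12198-treated tumour against 10.9% in the control tumour, 1.18-fold with an interval of 1.16 to 1.19, from 326 and 57 cells), neutrophil-like cells (5.96% against 4.34%), epithelial-like cells (20.7% against 14.5%) and erythroid-like cells (9.64% against 6.31%). In 2 of these classes the excess depended on how cells were weighed. The median acinar-like cell had 11.5% in the AF12198-treated tumour and 11.6% in the control tumour, and the median erythroid-like cell 4.26% against 3.84%. When only cells of 1000 to 4000 UMIs were used, the log2 ratio was -0.20 in acinar-like and -0.035 in erythroid-like cells.

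**Figure D1:**
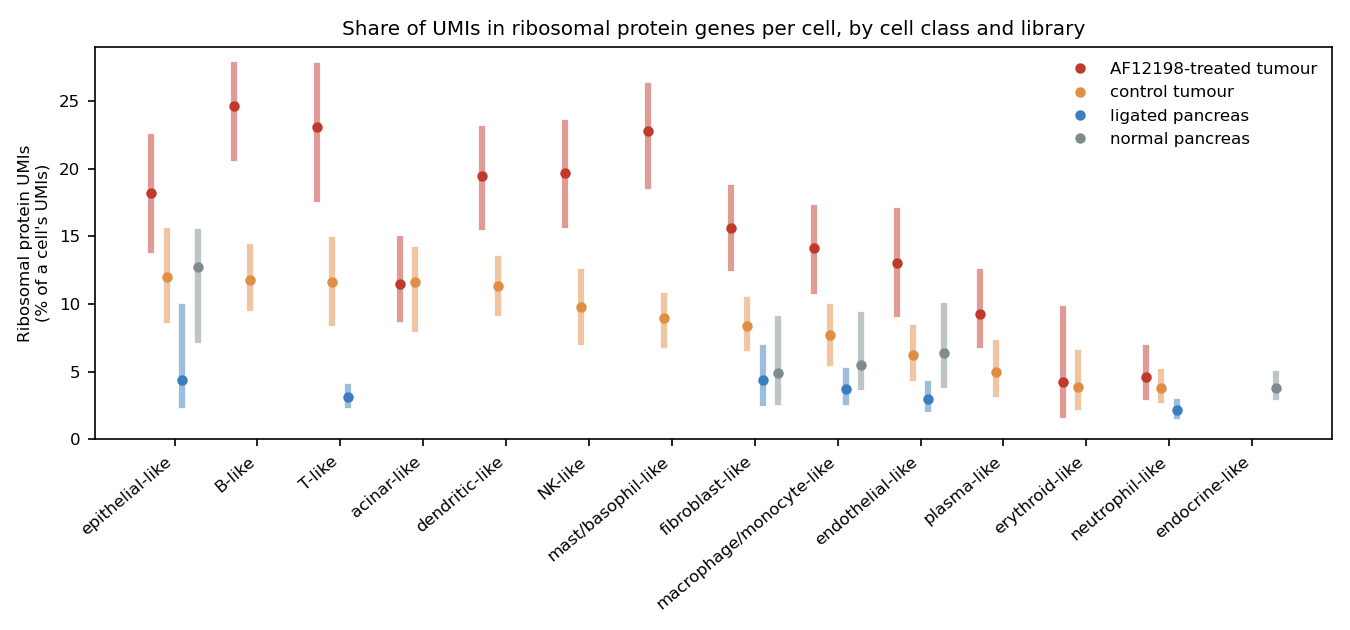
Share of each cell's UMIs in ribosomal protein genes (y axis, percent), by cell class (x axis) and library (colour). Points are medians over cells and bars run from the lower to the upper quartile of cells, for classes with at least 25 cells. The AF12198-treated tumour has the highest median in 12 of the 13 tumour classes, and the ligated pancreas the lowest in every class where it is shown.

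Some classes were held by different clusters in the 2 tumours. Neutrophil-like cells of the AF12198-treated tumour lay mostly in cluster 0 (4183 cells, against 207 control cells), and those of the control tumour in cluster 25 (98 AF12198-treated cells against 4563 control cells). Within cluster 0 the share was 6.41% in the AF12198-treated tumour and 4.41% in the control tumour, and within cluster 25 it was 6.62% and 4.47%. All 27 clusters with at least 25 cells in both tumours had the higher share in the AF12198-treated tumour, from 1.17-fold in neutrophil-like cluster 2 to 2.62-fold in endothelial-like cluster 10, which expresses the lymphatic genes Ccl21a and Mmrn1. The unnamed cluster 13, led by Tff1 and Lgals2, had the highest share of all clusters in both tumours, 27.3% in the AF12198-treated tumour and 21.5% in the control tumour (1.27-fold). Its best-matching class was epithelial, with 7 markers raised. Its 649 AF12198-treated and 651 control cells are not in the epithelial-like values, which rest on 525 and 631 cells.

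Counts per cell moved in the same sense. Ribosomal protein UMIs per cell were 1.31-fold (epithelial-like) to 3.07-fold (endothelial-like) as many in the AF12198-treated tumour as in the control tumour, while UMIs of all other genes were 0.851-fold (epithelial-like) to 1.58-fold (erythroid-like) as many. A T-like cell held on average 828 ribosomal protein UMIs in the AF12198-treated tumour and 334 in the control tumour, and a fibroblast-like cell 1797 and 934. Other UMIs of a fibroblast-like cell averaged 9267 in the AF12198-treated tumour and 9231 in the control tumour, a fold of 1.00.

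**Figure D2:**
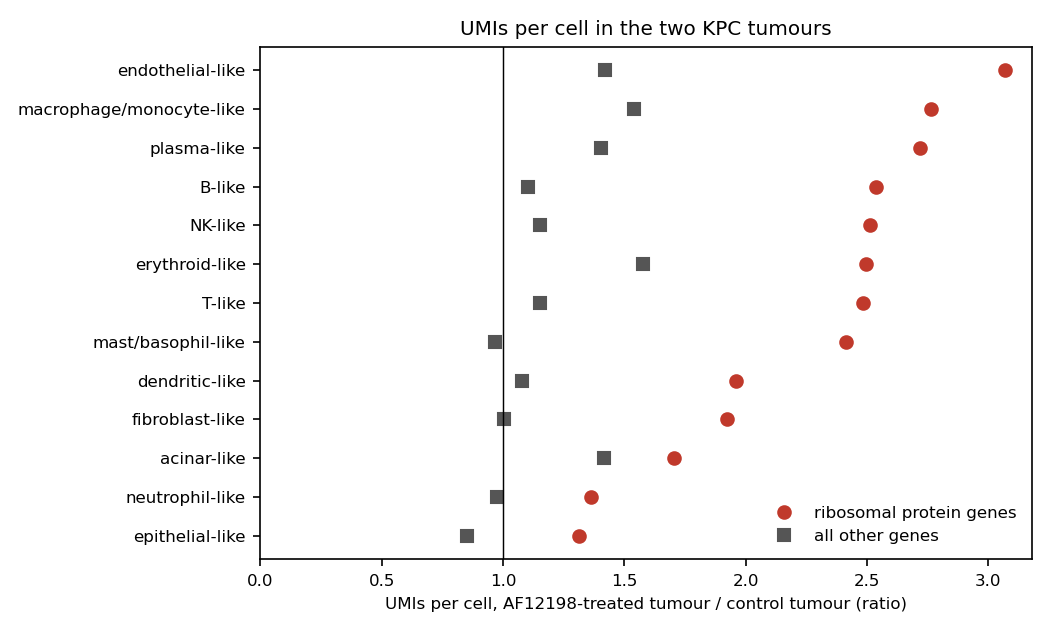
UMIs per cell in the AF12198-treated tumour over the control tumour (x axis, ratio of means) in 13 cell classes (y axis), for ribosomal protein genes (red circles) and for all other genes (grey squares); the line marks a ratio of 1. Red lies right of grey in every class.

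Genes were compared by CPM, counts per 1000000 UMIs of the same class and library, and counted as higher or lower from 1.2-fold. Ratios are log2 of (CPM + 1) over (CPM + 1), which understates changes of low genes, and only genes with a mean of at least 30 CPM were counted. In fibroblast-like cells 72 of 82 members that passed this filter were higher in the AF12198-treated tumour and 0 lower, beside 20.1% of all 4526 genes higher and 45.3% lower. Of the lymphocytes, T-like cells had 72 of 82 higher and 1 lower (all genes 13.4% and 59.9%), B-like cells 74 and 1 (14.4% and 59.7%) and NK-like cells 72 and 1 (15.3% and 57.4%). Endothelial-like cells had 74 of 82 higher and 1 lower (19.9% and 46.0%), macrophage/monocyte-like cells 72 and 1 (18.1% and 49.7%) and dendritic-like cells 69 and 0 (15.6% and 57.5%). Mast/basophil-like cells had 79 of 82 higher and 0 lower (25.7% and 55.1%), and plasma-like cells 72 of 80 and 0 (29.7% and 44.0%). The counts were smaller in epithelial-like cells, with 61 of 83 higher and 1 lower (15.9% and 53.6%), in erythroid-like cells, with 63 of 81 and 4 (20.8% and 52.6%), in neutrophil-like cells, with 59 of 82 and 6 (19.3% and 44.4%), and in acinar-like cells, with 46 of 80 and 10 (10.3% and 75.8%). Over the 13 classes the median number of members higher was 72. Because the rule used this comparison, nothing is read from these counts.

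The median log2 ratio of all genes was itself below 0 in each class, from -0.16 in plasma-like to -0.40 in B-like cells and -0.96 in acinar-like cells. Relative to that median, 66 to 81 members were higher and 0 to 2 lower, beside 30.2 to 40.1% of all genes higher. At 300 CPM or more, 57.5 to 97.5% of members were higher by class, and 19.7 to 45.8% of other genes, which is likewise a description.

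The members did not move as a block. The order of the genes was much alike from class to class: over the 77 core genes (subunit and stalk proteins), Pearson's r between the log2 ratios of 2 classes had a median of 0.93 and ranged from 0.78 to 0.99 over 78 pairs of classes, which all share the same 2 libraries. At the top, Rps18 had a median log2 ratio of 1.95 over the classes, and at the bottom Rpsa had -0.26.

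**Figure D3:**
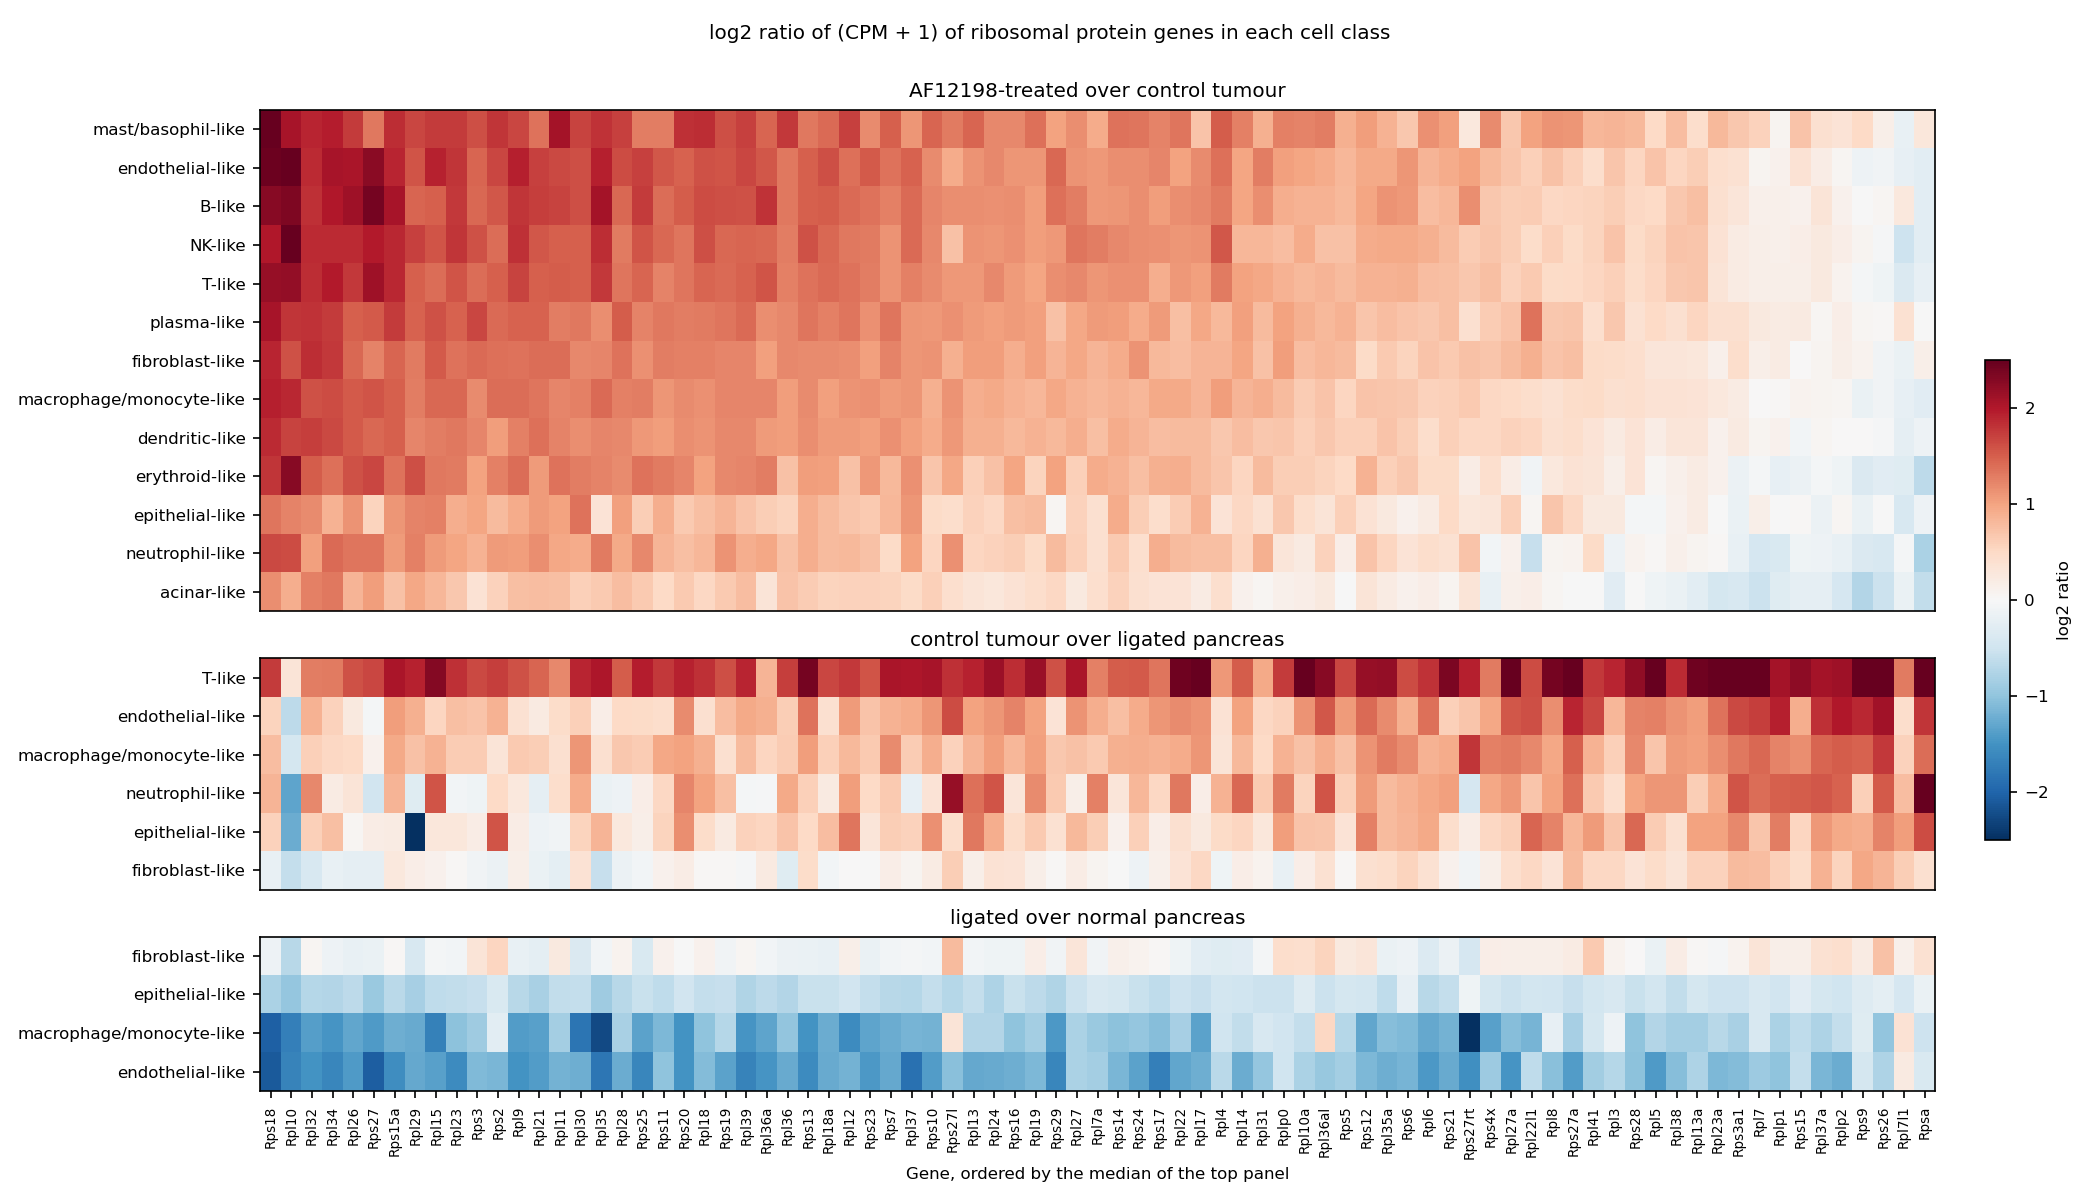
log2 ratio of (CPM + 1) (colour, red for higher in the first-named library) of ribosomal protein genes with at least 30 CPM over all cells (columns) in each cell class (rows), for the AF12198-treated over the control tumour (top), the control tumour over the ligated pancreas (middle) and the ligated over the normal pancreas (bottom). Genes run from the highest to the lowest median of the top panel; red fades toward the right in the top panel and grows toward the right in the middle one.

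Of the large subunit, the genes with the highest ratios were Rpl10, Rpl32, Rpl34 and Rpl26. Rpl10, which joins the large subunit late in its assembly at the site where transfer RNA is handled, stood at 862 CPM in fibroblast-like cells of the AF12198-treated tumour, against 287 CPM in the control tumour (3.01-fold, 2.88 to 3.14). It stood at 436 CPM in ligated and 701 CPM in normal fibroblast-like cells. The control tumour was thus the lowest of the 4 libraries for Rpl10 in these cells. Its largest ratio was in NK-like cells, with 1322 CPM in the AF12198-treated tumour and 181 CPM in the control tumour (7.29-fold, 6.08 to 8.80). Rpl32, a protein on the solvent side of the subunit, had 2502 CPM in AF12198-treated, 696 CPM in control, 921 CPM in ligated and 889 CPM in normal fibroblast-like cells. Rpl34, another large-subunit protein, had 2263, 665, 760 and 830 CPM in the same order of libraries. For both genes the AF12198-treated tumour stood alone in fibroblast-like cells and the other 3 libraries lay close together. Over all cells the normal pancreas lay between, with Rpl32 at 2668, 931, 866 and 1589 CPM and Rpl34 at 2282, 867, 814 and 1644 CPM. Rpl26, whose human counterpart also binds the mRNA of p53, had 2018 CPM in AF12198-treated, 749 CPM in control, 872 CPM in ligated and 992 CPM in normal fibroblast-like cells. These 4 genes were at least 1.2-fold higher in the AF12198-treated tumour in all 13 classes. Fibroblast-like cells were not of the same make-up in all libraries. At Leiden resolution 2.0, a finer clustering, the cluster led by Abca8a and Clec3b held 53 AF12198-treated, 56 control, 272 ligated and 110 normal cells. The cluster led by Sfrp2 and Dpt held 385, 1007, 98 and 0. Fibroblast-like values of tumour against pancreas therefore compare partly different cells.

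Other large-subunit genes had smaller ratios between the tumours. Rpl37a, which holds a zinc finger, had 3493 CPM in AF12198-treated, 3344 CPM in control, 1833 CPM in ligated and 1407 CPM in normal fibroblast-like cells, and its median log2 ratio over the tumour classes was 0.06. Rps15 of the small subunit, near the decoding centre, had 0.09. Rpl41, the shortest ribosomal protein, had 4771, 3417, 2400 and 1522 CPM in the same order, with a median log2 ratio of 0.47, and was at least 1.2-fold higher in the AF12198-treated tumour in 11 of 13 classes. For Rpl37a both tumours stood above both pancreas libraries, and the tumours nearly met.

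Of the small subunit, Rps18, which sits in its head, had 2083 CPM in AF12198-treated, 554 CPM in control, 632 CPM in ligated and 694 CPM in normal fibroblast-like cells (AF12198-treated over control 3.76-fold, 3.65 to 3.87). In T-like cells it had 3332 CPM in the AF12198-treated tumour, 733 CPM in the control tumour and 216 CPM in the ligated pancreas. In endothelial-like cells Rps18 had 1834, 332, 226 and 974 CPM from the AF12198-treated tumour to the normal pancreas. Here the normal pancreas was the second highest, and the control tumour lay nearer to the ligated pancreas. Rps27, a zinc-finger protein, had 1840 CPM in AF12198-treated, 384 CPM in control, 399 CPM in ligated and 1663 CPM in normal endothelial-like cells, with the control tumour and the ligated pancreas close together and both far below the other libraries.

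At the other end, Rpsa, known also as the laminin receptor, was the lowest of all members by median. It had 2464 CPM in AF12198-treated and 2221 CPM in control fibroblast-like cells, and 4367 against 5024 CPM in T-like cells (0.869-fold, 0.856 to 0.883). In neutrophil-like cells it had 663 CPM in the AF12198-treated tumour and 1149 CPM in the control tumour (0.576-fold, 0.560 to 0.593). Rpsa was at least 1.2-fold lower in 6 of 13 classes and higher in 1. Rps26, which lies where mRNA leaves the small subunit, had 1542 CPM in AF12198-treated and 1650 CPM in control fibroblast-like cells, with a median log2 ratio of -0.10. Rps9, an early-binding protein near the mRNA entry, had 2152 against 2019 CPM there, with a median log2 ratio of -0.06. Rps26 was 1.2-fold lower in 3 classes and higher in 0, and Rps9 lower in 3 and higher in 1. By CPM the median log2 ratios of these 3 genes were below 0, and relative to the median of all genes, at -0.31 over the classes, they were above it.

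The stalk proteins behaved differently from one another. Summed over the 3, the fold of the AF12198-treated over the control tumour had a median of 1.19 over the classes, against 1.86 for the large subunit and 1.76 for the small subunit. Rplp1 had 4903 CPM in AF12198-treated, 4261 CPM in control, 2816 CPM in ligated and 2531 CPM in normal fibroblast-like cells, and Rplp2 had 1828, 1648, 1126 and 837 CPM. Their median log2 ratios were 0.10 and 0.05, and Rplp0, which anchors the pair, had 0.79.

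**Figure D4:**
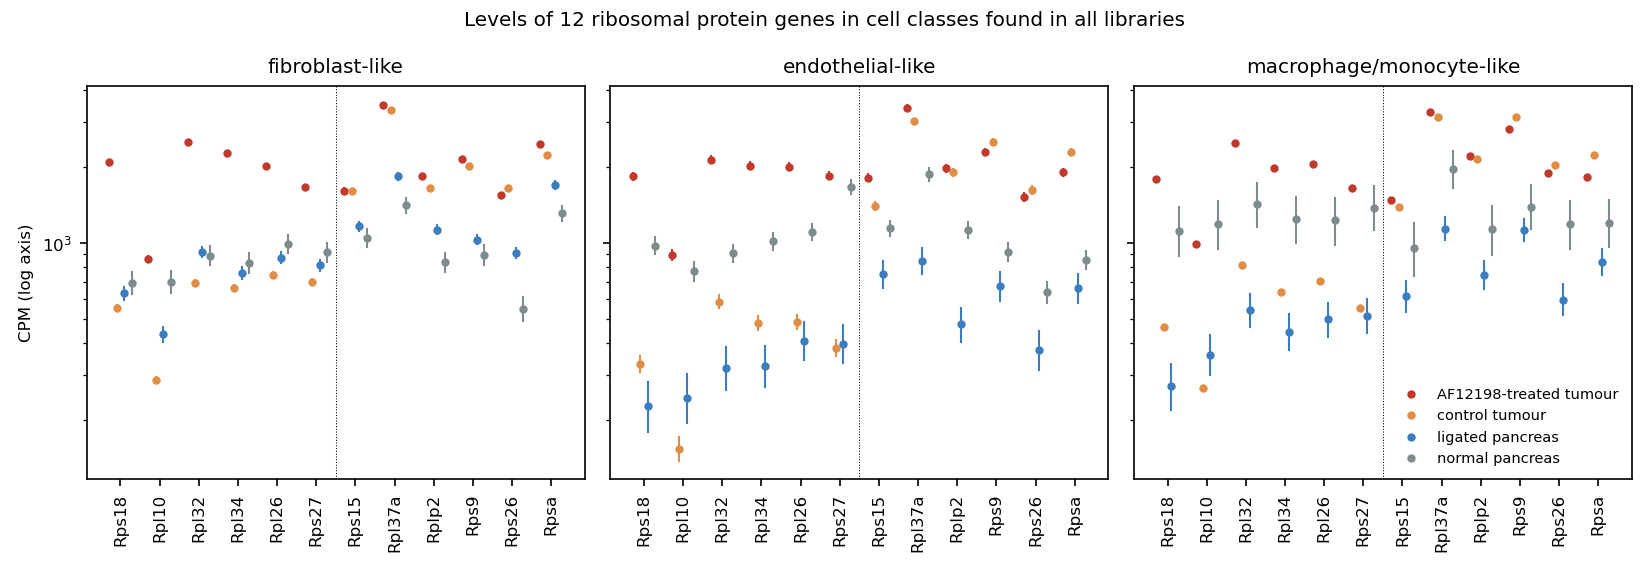
CPM (log axis) of 12 ribosomal protein genes in 3 cell classes with at least 25 cells in all 4 libraries; points are library values and bars their 95% Poisson intervals. Left of the dotted line are the 6 members with the highest median ratio of the AF12198-treated over the control tumour, right of it the 6 lowest with at least 300 CPM over all cells; the tumours are well apart on the left and close together on the right.

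Of the paralogs, Rps27l, whose human counterpart is a p53 target, had 443 CPM in AF12198-treated, 238 CPM in control, 154 CPM in ligated and 88.9 CPM in normal fibroblast-like cells, and was higher in the AF12198-treated tumour in 13 of 13 classes. Rpl36al was higher in 12 classes and took its largest part in plasma-like cells, with 1356 CPM in the AF12198-treated and 771 CPM in the control tumour. Rpl22l1, the paralog of Rpl22, had 905 CPM in AF12198-treated, 487 CPM in control, 340 CPM in ligated and 307 CPM in normal fibroblast-like cells. In neutrophil-like cells it went the other way, with 95.5 CPM in the AF12198-treated tumour and 142 CPM in the control tumour (0.671-fold, 0.620 to 0.726). Rpl3l, known from heart and skeletal muscle, was at a low level throughout and had most of its UMIs in neutrophil-like cells, 226 in the AF12198-treated tumour (19.1 CPM) and 59 in the control tumour (6.07 CPM). Rpl39l, known from testis, had at most 26 UMIs in any class of a library, in T-like cells of the AF12198-treated tumour. Rps27rt, which differs little from Rps27 in sequence, had a median log2 ratio of 0.64. Of the other genes that match the name rule, Rps19bp1, a nucleolar partner of Rps19, had a median log2 ratio of 0.98 and Rpl7l1 one of -0.21.

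Promoter windows are shown for 5 core genes from each end of this order, since a pyrimidine run at the start is the sequence feature that ribosomal protein genes are best known for. They are from RefSeq (GRCm38.p6), from 40 bases before to 20 after the listed start, 5′ to 3′ on the gene's strand, with capitals for runs of at least 6 C or T within 20 bases of the start. Rps18 (chr17:33955646-33955705, minus strand), Rpl10 (chrX:74270776-74270835, plus strand), Rpl26 (chr11:68901526-68901585, plus strand) and Rps27 (chr3:90213629-90213688, minus strand) had ratios near the top, as did Rpl34 (chr3:130730379-130730438, minus strand). Rpl37a (chr1:72711220-72711279, plus strand), Rplp2 (chr7:141447611-141447670, plus strand), Rps9 (chr7:3704001-3704060, plus strand), Rps26 (chr10:128626487-128626546, minus strand) and Rpsa (chr9:120127726-120127785, plus strand) were near the bottom.
Rps18: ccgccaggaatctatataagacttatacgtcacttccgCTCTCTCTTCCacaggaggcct
Rpl10: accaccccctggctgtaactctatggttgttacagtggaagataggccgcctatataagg
Rpl34: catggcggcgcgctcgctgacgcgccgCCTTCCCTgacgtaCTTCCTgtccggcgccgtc
Rpl26: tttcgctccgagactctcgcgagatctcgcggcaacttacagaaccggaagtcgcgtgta
Rps27: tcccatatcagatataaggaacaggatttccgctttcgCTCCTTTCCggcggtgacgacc
Rpl37a: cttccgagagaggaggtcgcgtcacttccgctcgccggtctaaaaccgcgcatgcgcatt
Rplp2: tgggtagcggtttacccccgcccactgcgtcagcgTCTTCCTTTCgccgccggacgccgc
Rps9: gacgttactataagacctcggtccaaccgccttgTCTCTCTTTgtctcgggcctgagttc
Rps26: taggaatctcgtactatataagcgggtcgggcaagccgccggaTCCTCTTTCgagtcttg
Rpsa: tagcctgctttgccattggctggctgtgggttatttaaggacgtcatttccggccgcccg
Runs of this kind stood at both ends of the order. Of the 57 core genes in the table, 37 (64.9%) had one, beside 37.4% of all 27025 genes. Of the 29 core genes with the higher ratios 62.1% had a run, and of the 28 with the lower ratios 67.9%. The run was searched on the gene's strand only, and its absence says only that these letters are not in this window. A counted run can also lie wholly before the listed start, as the first one of Rpl34 does. The percentages are therefore not those of runs that begin the mRNA. In all, 66 of the 86 members matched the table, 41 of them with a run. Rpl32 is not shown.

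In the control tumour over the ligated pancreas, the share of ribosomal protein UMIs was higher in 6 of 6 classes, by a median of 1.85-fold. T-like cells had 13.0% in the control tumour and 3.20% in the ligated pancreas (4.06-fold, 3.88 to 4.26). The control cells had a median of 1907.5 UMIs and the 58 ligated cells 794.5. Endothelial-like cells had 7.57% in the control tumour and 3.46% in the ligated pancreas, macrophage/monocyte-like cells 8.88% and 4.52%, neutrophil-like cells 4.34% and 2.48%, and epithelial-like cells 14.5% and 8.79%. Fibroblast-like cells differed least, with 9.19% in the control tumour and 7.59% in the ligated pancreas (1.21-fold). Without the classes of fewer than 100 cells the median fold rested on 5 classes and the log2 median was 0.81, against 0.89 with them. Epithelial-like cells were not the same cells: 547 of 631 in the control tumour lay in cluster 11, which held 1 ligated cell, and in cluster 22, found in both libraries, ribosomal protein genes took 9.38% of control UMIs and 8.80% of ligated UMIs. Neutrophil-like cells differed in the same way, with 4563 of 6009 control cells in cluster 25, which held 7 ligated cells. In neutrophil-like cluster 2, with 363 control and 84 ligated cells, the share was 3.19% and 2.39% (1.34-fold).

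Member counts followed. In endothelial-like cells 76 of 81 members that passed the filter were higher in the control tumour beside 36.3% of all genes higher. In fibroblast-like cells 35 of 82 were higher, beside 46.4% of all genes higher, and relative to the median of all genes (0.22 on the log2 scale) 18 were higher and 19 lower. The fibroblast-like share of members was thus near the background. The other classes stood above it: T-like cells had 82 of 82 higher beside 37.7% of all genes, macrophage/monocyte-like cells 79 of 81 beside 34.1%, epithelial-like cells 66 of 83 beside 40.7% and neutrophil-like cells 64 of 82 beside 48.5%. In the epithelial-like and neutrophil-like classes these counts compare cells of mostly different clusters. The T-like and macrophage/monocyte-like classes differed in part. T-like cluster 6 held 1283 control cells and 1 ligated cell, and cluster 14 held 875 and 46. Macrophage/monocyte-like cluster 12 held 2523 of 4944 control and 124 of 154 ligated cells. Within cluster 14 the share was 12.4% in control and 3.15% in ligated cells, and within cluster 12 it was 8.64% and 4.70%.

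Rpsa, Rps26, Rpl37a and Rplp2 had the highest ratios here. Rpsa had 2291 CPM in control and 660 CPM in ligated endothelial-like cells (3.47-fold, 3.04 to 3.99), and 5024 CPM in control against 450 CPM in ligated T-like cells, from 25 ligated UMIs. Rps26 had 1620 CPM in control and 376 CPM in ligated endothelial-like cells (4.31-fold, 3.61 to 5.19). Their median log2 ratios over the 6 classes were 1.71 and 1.65, that of Rpl37a was 1.51, and Rplp2 was higher by a median of 2.83-fold. The lowest ratios among well-measured genes were those of Rpl10 and Rps27, at -0.63 and 0.02. Rpl10 had 153 CPM in control and 243 CPM in ligated endothelial-like cells (0.630-fold, 0.493 to 0.812), and 444 CPM in control against 1047 CPM in ligated epithelial-like cells (0.424-fold, 0.404 to 0.445). It was at least 1.2-fold lower in the control tumour in 5 of 6 classes, the exception being T-like cells, where 10 ligated UMIs were counted. Rpl29, a heparin-binding protein of the large subunit, had 69.3 CPM in control and 402 CPM in ligated epithelial-like cells. It had 165 CPM in AF12198-treated and 716 CPM in normal ones. Both tumours were thus below both pancreas libraries, in this class alone among the 4 classes measured in every library. Epithelial-like cells lay mostly in cluster 11 in the tumours (445 AF12198-treated and 547 control cells). In the pancreas libraries they lay mostly in cluster 22 (329 ligated and 622 normal cells). The Rpl29 and Rpl10 values of tumour against pancreas in this class therefore compare mostly different cells. The control tumour is a part of both this comparison and the one with AF12198, so the orders of the 2 are not independent.

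In the ligated over the normal pancreas, the share was lower in 3 of 4 classes, with a median of 0.578-fold. Endothelial-like cells had 3.46% in the ligated and 8.07% in the normal pancreas (0.428-fold, 0.420 to 0.437), epithelial-like cells 8.79% and 13.1%, and macrophage/monocyte-like cells 4.52% and 9.10%, with 25 cells in the normal pancreas. Fibroblast-like cells had 7.59% in the ligated and 7.31% in the normal pancreas (1.04-fold, 1.03 to 1.05), although the median cell had 4.37% in the ligated and 4.94% in the normal pancreas. At Leiden resolution 2.0 the fibroblast-like cluster led by Sfrp2 and Dpt held 98 ligated and 0 normal cells.

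In endothelial-like cells 81 of 82 members that passed the filter were lower in the ligated pancreas, beside 27.0% of all genes. In epithelial-like cells 78 of 83 were lower, beside 27.3%, in macrophage/monocyte-like cells 76 of 82, beside 31.9%, and in fibroblast-like cells 8 of 81, beside 33.5%. The lowest ratios were those of Rps18, Rpl35, Rpl10 and Rps27. In endothelial-like cells Rps18 had 226 CPM in the ligated and 974 CPM in the normal pancreas (0.232-fold, 0.181 to 0.294), and Rpl35, a large-subunit protein at the exit tunnel, had 194 and 680 CPM. Rps27 had 399 CPM in ligated and 1663 CPM in normal endothelial-like cells. Rpl10 was lower in all 4 classes, with 1047 CPM in ligated and 2055 CPM in normal epithelial-like cells. Of the members with UMIs in these libraries, the highest medians were those of Rpl3l and Rpl7l1, both at low levels. Rpl3l had 4 UMIs over all cells of the ligated and 0 in the normal pancreas, so its ratio rests on the added 1 CPM. Rpl10l and Rpl39l had no UMI in either library and so have no ratio here.

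The 2 comparisons that share no library ordered the core genes inversely. Across the 77 core genes, the median log2 ratio of the AF12198-treated over the control tumour and that of the ligated over the normal pancreas had Pearson's r of -0.72 and Spearman's rho of -0.72. Rps18, Rpl10 and Rps27 were among the 6 highest in the tumour comparison and the 4 lowest in the pancreas comparison, and Rpsa and Rps9 were near the other end in each. Genes are not independent replicates, each comparison rests on 1 library a side, and all 4 libraries share the same counting, so the value is a description.

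The make-up of the ribosomal protein UMIs also differed between cell classes within a library. In the control tumour Rps27l took 0.430% of member UMIs in plasma-like and 0.0725% in B-like cells, Rpl22l1 took 0.733% in epithelial-like and 0.140% in plasma-like cells, and Rpl29 took 0.348% in plasma-like and 0.0478% in epithelial-like cells. Among core genes Rpl29 varied most between classes, with an SD of 0.741 on the log2 scale, and Rps3a1 least, with 0.0945. Rplp1, Rpl41, Rps29 and Rpl37a were among the members with the largest counts of UMIs over all cells; molecules are tagged at the 3′ end, and these counts are not divided by length. Rplp1 took 2.46% of member UMIs in the AF12198-treated tumour, 4.03% in the control tumour, 2.93% in the ligated and 2.26% in the normal pancreas. Rps29 had 4172, 2333, 1907 and 3763 CPM in the same order of libraries.

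Over the 77 core genes, Spearman's rho of the ratio in the AF12198 comparison was -0.00535 with transcript length and -0.00234 with GC content. Length did go with the ratio of the other genes, whose median log2 ratio was 0.24 below 600 bases and -0.50 at 4000 bases or more. Ribosomal protein genes below 600 bases had a median of 0.82, and non-members of that length 0.24. The members were chosen by these ratios, so the gap is a description. The part of length in the results was not tested.

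Many ribosomal protein genes have processed copies in the mouse genome, and reads that match several places can be lost or moved between rows. Of the 77 core genes, 42 shared at least 50% of the 50-base words of their last 400 bases with another annotated transcript, and their median log2 ratio was 0.95, against 1.10 in the 15 genes that shared none. With 90-base words the order turned, with 1.01 in the 30 genes that shared at least 50% and 0.99 in the 19 that shared none. By 50-base words, Rps18, Rpl10, Rpl34, Rpl26 and Rps27 of the 6 highest members shared at least 50%, and Rpl32 29.9%. Of the lowest, Rps26 and Rps9 shared at least 50% and Rpsa 0%. The highest log2 ratio was 1.95 in the 42 genes and 1.40 in the 15, and the lowest -0.10 and -0.26. Counted rows that hold a stretch of a member were followed too. Rpl9-ps6, which holds all words of the end of Rpl9, had 35.9 CPM in the AF12198-treated tumour, 127 CPM in the control tumour, 38.4 CPM in the ligated and 35.4 CPM in the normal pancreas, while Rpl9 had 1517, 660, 714 and 1524 CPM. The copy thus took 2.31% of the pair in the AF12198-treated tumour, 16.2% in the control tumour, 5.10% in the ligated and 2.27% in the normal pancreas. Of the pair Rpl10 and Rpl10-ps3, the copy took 2.57, 5.89, 3.04 and 2.23%, and of Rps27 and Rps27rt the second took 3.21, 5.10, 3.89 and 2.34%. The copy's part was largest in the control tumour in these pairs but not in all: of Rpl41 and Gm10076 the copy took 6.82% in the AF12198-treated tumour, 4.64% in the control tumour, 4.27% in the ligated and 7.24% in the normal pancreas, and of Rpl35 and Gm2000 5.60, 5.14, 4.96 and 3.89%. Values of genes with such copies are uncertain, and since reads that were not counted appear in neither row, these shares do not bound by how much. The part of multiply matching reads in the order of the genes was not tested.

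Other genes of translation were read against the same background. Of 19 other genes whose mRNAs carry the pyrimidine start or belong to the same programme, a median of 9 were higher and 3 lower in the AF12198-treated tumour, with a median log2 ratio of 0.23 against -0.31 for all genes, of which a median of 18.1% were higher and 53.6% lower. Fau, which encodes a ribosomal protein fused to a ubiquitin-like one, had log2 ratios above 0 in 13 of 13 classes, from 0.06 to 1.60 with a median of 0.88. The elongation factors Eef1a1 and Eef2 had 0.08 and 0.07, and the poly(A)-binding protein Pabpc1 had -0.59. In the control tumour over the ligated pancreas Pabpc1 had 1.27 and Eef1a1 0.97, and in the ligated over the normal pancreas they had 0.19 and -0.50.

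Mitochondrial ribosomal proteins, a separate set of 78 genes that build the ribosome of mitochondria, had a median log2 ratio of 0.50 in the AF12198-treated over the control tumour. Of the 16 to 64 of them that passed the filter in a class, a median of 22 were higher and 3 lower, beside medians of 18.1% and 53.6% of all genes. Genes of ribosome assembly had a median of -0.01 (6 to 20 of 26 genes passed the filter in a class) and initiation factors -0.03 (23 to 24 of 24), beside -0.31 for all genes. The median was -0.47 for mTOR regulators (6 to 9 of 17), -0.30 for RNA polymerase I (3 to 5 of 12) and -0.27 for cell-cycle genes (2 to 14 of 15). The mTOR list mixes activating and inhibiting genes, so its median gives no direction for the pathway. In the control tumour over the ligated pancreas the mitochondrial set had 0.40 and initiation factors 0.72, beside -0.001 for all genes. In the ligated over the normal pancreas they had -0.44 and -0.07, beside 0.10 for all genes.

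Several other measures moved with the libraries. The mitochondrial share of a cell's UMIs had a median of 3.95% in the AF12198-treated tumour, 5.54% in the control tumour, 1.25% in the ligated and 2.18% in the normal pancreas. Gm42418, AY036118 and Gm26917, which collect reads of ribosomal RNA, took 4.98, 4.57, 15.2 and 7.64% of UMIs. Of 18 genes induced by tissue dissociation, a median of 14 were lower in the AF12198-treated than in the control tumour and 1 higher, beside 44.0 to 75.8% of all genes lower by class. The list had a median log2 ratio of -0.89, beside -0.31 for all genes, with Fos at -1.07, Junb at -1.31 and Dusp1 at -1.56. Its median was 0.03 in the control tumour over the ligated pancreas, beside -0.001 for all genes. In the ligated over the normal pancreas it was 0.05, beside 0.10. Acinar enzyme UMIs in classes other than acinar-like, a measure of free RNA, had a median of 0.0587% in the AF12198-treated tumour, 0.00682% in the control tumour, 0.199% in the ligated and 0.264% in the normal pancreas, and red-cell genes 0.0288, 0.110, 0 and 0%. The part of these measures in the results was not tested, and treatment, animal, digestion and library cannot be told apart with 1 library per group.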

How the data were processed

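Droplet single-cell RNA libraries of 4 samples were analysed. The authors deposited UMI counts per gene and cell, with no normalization; Cell Ranger 6.0.0 and the mm10 build are named in the submitters' processing notes. The steps that follow were computed here with Scanpy 1.11.5. Cells with at least 250 genes, at least 500 UMIs and at most 20% mitochondrial UMIs were kept. Doublets were scored per library with Scrublet, whose automatic threshold marked 1 cell of the AF12198-treated tumour, so in that library the top-scoring 5% was taken out. Removed doublets numbered 1043, 2163, 0 and 1 in the AF12198-treated tumour, the control tumour, the ligated and the normal pancreas, which left 85411208, 80398550, 5315805 and 11235204 UMIs. The lowest barcode had 760 UMIs in the control tumour and 500 in each of the others.

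Cells were clustered (2000 variable genes without ribosomal and mitochondrial genes, 40 principal components, 20 neighbours, Leiden resolution 1.0) and named from markers of 18 classes; no deposited annotation was used. Counts were summed per class and library. Shares have exact binomial intervals, ratios exact conditional ones and levels exact Poisson ones. Members and gene lists were chosen with earlier results of these data known. Named genes were those with the highest and lowest median ratio in each comparison, the paralogs, the highest levels and the most uneven make-up. Rplp0, Rpl9, Rps15 and Rps3a1, and the non-members named, were chosen after their values were seen. Results for some genes are not reported here.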

Additional observations from a re-analysis of the deposited data

Results flagged for a closer look

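The share of ribosomal protein UMIs in fibroblast-like cells was 1.04-fold in the ligated over the normal pancreas (7.59% and 7.31%), while endothelial-like, macrophage/monocyte-like and epithelial-like cells stood at 0.428-, 0.497- and 0.672-fold. This difference between classes was not tested. At Leiden resolution 2.0 the ligated and normal fibroblast-like cells lay in part in different clusters.

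Rows named as pseudogenes lie outside the members but held UMIs. Rpl10-ps3 had 24.6 CPM in the AF12198-treated tumour and 17.8 CPM in the control tumour, a fold of 1.38 (1.29 to 1.48), and Rpl36a-ps1 had 18.4 and 11.9 CPM, a fold of 1.55 (1.43 to 1.68). Other such rows went differently: Rpl9-ps6 had 35.9 CPM in the AF12198-treated tumour and 127 CPM in the control tumour, a fold of 0.282 (0.271 to 0.294), and Rpl9-ps1 had 1.25 and 1.28 CPM, a fold of 0.978 (0.739 to 1.29).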

How the results depend on the processing

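No paired analysis was possible because each group has 1 library. The median log2 ratio of the share over classes was 0.82 for the AF12198-treated over the control tumour. It was 0.78 without mitochondrial and rRNA-collecting genes in the denominator, 1.08 scaled to the median gene, 0.77 with a stricter cell filter, 0.81 with doublets kept, 0.79 at Leiden resolution 2.0, 0.80 in cells of 1000 to 4000 UMIs, 0.85 as a mean over cells, 0.83 after 10% of the pooled profile was subtracted and 0.84 over single clusters. For the control tumour over the ligated pancreas it was 0.89. In the same order, leaving out settings that moved it little, it was 0.79 (denominator), 0.85 (median gene), 0.82 (stricter filter), 0.86 (resolution 2.0), 0.98 (UMI window), 1.01 (subtraction), 0.81 (no class under 100 cells) and 0.67 (single clusters). For the ligated over the normal pancreas it was -0.79, and -0.73 (denominator), -0.91 (median gene), -0.58 (stricter filter), -0.82 (doublets kept), -0.57 (resolution 0.5), -0.57 (resolution 2.0), -0.96 (UMI window), -0.57 (at least 760 UMIs), -0.82 (mean over cells), -0.90 (no class under 100 cells) and -0.57 (single clusters). Some settings changed which classes entered this last median. Without classes under 100 cells it rested on endothelial-like and epithelial-like cells, and over single clusters on clusters 8, 15 and 22. At resolution 0.5 the macrophage/monocyte-like class had 23 normal cells and dropped out. Its 25 normal cells in the main setting just met the limit. Single clusters and the class-size limit were chosen after seeing the data. Of single class values, 134 of 136, 63 of 63 and 36 of 37 kept their direction in the 3 comparisons. The exceptions were erythroid-like (-0.035) and acinar-like cells (-0.20) of 1000 to 4000 UMIs in the AF12198 comparison, and fibroblast-like cells of the ligated over the normal pancreas as a mean over cells (-0.20); the cause was not tested.

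With 1 library per group the intervals leave out the spread between animals. The ligated and normal libraries hold few cells, so classes such as ligated T-like and normal macrophage/monocyte-like cells rest on few UMIs per gene. Cell classes were rebuilt from markers, and free RNA was not removed.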
